A study of Mus musculus with 3 samples.

Results

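The 10 integrin and homing adhesion genes Itga2b, Itga4, Itga6, Itgal, Itgam, Itgb1, Itgb2, Itgb3, Selplg and Cd44 were examined for CUT&Tag peaks of Flag-tagged Bcl11a, a zinc finger repressor, in mouse bone marrow cells. CUT&Tag sends a transposase to a protein on chromatin through an antibody, which the labels do not name, and the DNA it cuts is sequenced. Bone marrow LSK cells (lineage-negative, Sca-1-positive, Kit-positive, the sorted fraction with the blood stem cells and early progenitors) were profiled in 3 libraries of 1 group. Per the series design, the animals were Bcl11a knock-in mice whose protein carries 3xFlag on its N-terminus. The genotype label of all 3 libraries reads wildtype, and the labels used here give no age and name no separate animals, so an SD measures only the spread between these libraries. No library from untagged cells and no antibody control was analysed here, so a peak at the tagged protein and a peak at chromatin that is merely open cannot be told apart.

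A region was formed wherever peaks of the libraries overlapped by at least 1 bp, and was called reproducible when all 3 libraries had a peak in it. Each region was given to the protein-coding gene whose outer end lay nearest to the summit of its strongest peak, if it lay inside that gene or within 100 kb of the end. By this rule 34 of 22987 reproducible regions belonged to the 10 members, out of 21887 protein-coding genes. With ends of noncoding genes competing as well, 23 regions were left to them, and Itgam had 2, Selplg 2, and Itgb1, Itgal and Cd44 1 each. Taken singly, and with those outside the reproducible regions included, 44 of the 38731 peaks of library 1 were given to the members, 52 of 36459 in library 2 and 58 of 43462 in library 3. Genes and coordinates are those of RefSeq on GRCm38, the assembly behind mm10.

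Integrins are receptors made of an alpha and a beta chain that span the cell membrane and bind matrix or partner proteins on other cells once signals inside the cell have switched them on. In bone marrow they hold stem and progenitor cells in place, and with selectin ligands and the hyaluronan receptor CD44 they bring cells that circulate in blood back to the marrow. Itga4 and Itgb1 encode the chains of the receptor for VCAM1 and fibronectin, and Itga6 a laminin receptor chain that also pairs with Itgb1. Itgal and Itgam encode leukocyte alpha chains that pair with Itgb2, and Itga2b and Itgb3 the fibrinogen receptor of platelets and megakaryocytes. Selplg encodes PSGL-1, the ligand of P-selectin.

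The 10 members were chosen with earlier results of these data known. Of the members, 9 of 10 had a reproducible region within 1 kb of an outer gene end, where the share of all protein-coding genes was 45.2%. All 10 had at least 1 region, against 53.7% of genes. At least 3 regions were given to 7 of 10 members, against 10.6% of genes, and at least 4 to 5 of 10, against 5.83%. The members carried 3.40 regions per gene, where all protein-coding genes had 1.01. Members were longer than most genes, with a median length of 51.9 kb against 17.2 kb. Among the 9147 protein-coding genes between the shortest member (14.7 kb) and the longest (90.5 kb), a background chosen after the values were seen, 53.9% had an occupied end, 64.4% had at least 1 region, 12.9% at least 3 and 6.69% at least 4, and the mean was 1.19 regions. Fewer members were occupied with the 10000 strongest peaks of each library (5 of 10, against 20.0% of genes) and with 50% reciprocal overlap of the peaks (6 of 10, against 34.9%). No set test was run on the list, so these shares describe it and do not test it.

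The DNA just upstream of the transcription start is shown for the members that the RefSeq promoter table holds, because a gene-end region covers it at 4 of them and leaves it bare at Itgam. The table matched 5 of 10 members, and Itga6, Itgal, Itgb2, Itgb3 and Selplg had no entry. Each line gives the 250 bases before the start, 5′ to 3′ on the gene's strand (GRCm38.p6). Capitals mark matches on either strand to any of 6 short motifs. The motif TGACCA has been reported for the BCL11A protein itself. The motif AGATAA is bound by the GATA family of blood factors, and the motif TGTGGT by the RUNX family. The motif GAGGAAGT is typical of PU.1, the motif CCGGAAGT is typical of other ETS proteins, and the motif GGGCGG is typical of SP and KLF proteins. None of these motifs contains another.
Itga2b, chr11:102469884-102470133, minus strand: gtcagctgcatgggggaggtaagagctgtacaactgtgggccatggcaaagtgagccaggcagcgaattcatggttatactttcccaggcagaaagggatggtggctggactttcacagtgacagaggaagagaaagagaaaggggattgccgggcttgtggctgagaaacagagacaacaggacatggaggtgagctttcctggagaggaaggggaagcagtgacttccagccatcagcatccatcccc
Itga4, chr2:79255176-79255425, plus strand: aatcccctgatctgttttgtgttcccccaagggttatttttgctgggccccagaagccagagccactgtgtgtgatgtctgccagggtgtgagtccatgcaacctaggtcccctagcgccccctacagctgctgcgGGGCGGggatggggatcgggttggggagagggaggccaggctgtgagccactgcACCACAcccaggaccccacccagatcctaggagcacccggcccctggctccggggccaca
Itgb1, chr8:128685404-128685653, plus strand: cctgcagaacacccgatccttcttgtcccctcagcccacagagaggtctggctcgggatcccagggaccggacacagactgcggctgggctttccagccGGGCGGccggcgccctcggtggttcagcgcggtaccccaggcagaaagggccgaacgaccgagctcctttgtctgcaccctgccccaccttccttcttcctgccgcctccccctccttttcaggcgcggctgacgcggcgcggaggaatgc
Cd44, chr2:102901666-102901915, minus strand: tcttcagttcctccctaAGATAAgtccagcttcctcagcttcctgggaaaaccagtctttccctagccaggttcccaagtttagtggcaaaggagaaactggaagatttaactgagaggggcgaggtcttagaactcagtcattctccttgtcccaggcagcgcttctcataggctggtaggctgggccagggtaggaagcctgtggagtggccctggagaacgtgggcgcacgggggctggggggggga
Itgam, chr7:128062390-128062639, plus strand: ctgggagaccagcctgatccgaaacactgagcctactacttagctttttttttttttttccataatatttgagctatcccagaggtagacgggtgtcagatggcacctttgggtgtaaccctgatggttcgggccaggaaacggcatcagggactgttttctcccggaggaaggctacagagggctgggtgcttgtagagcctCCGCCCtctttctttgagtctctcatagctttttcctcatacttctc

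A reproducible region covered all 250 of these bases at Itga2b, Itga4 and Itgb1 and 248 of them at Cd44. At Itgam it covered 0. The summit lay 217 bp upstream of the start at Itga2b and 231 bp upstream at Itga4, inside the printed stretch. It lay 460 bp downstream of the start at Itgb1 and 42 bp downstream at Cd44. GGGCGG was found in 3 of the 5 stretches (Itga4, Itgb1 and Itgam), where 32.7% of the 32851 promoters of the table held it, and 64.7% of the 10190 that overlapped a reproducible region. AGATAA stood in the Cd44 stretch only, from 233 to 228 bases before its start (9.99% of all promoters, 4.30% of those that overlapped a region). TGTGGT stood in the Itga4 stretch only, as ACCACA from 60 to 55 bases before its start (14.0% and 10.7%). In 0 of the 5 stretches were TGACCA (11.4% and 10%), the PU.1 motif GAGGAAGT (2.44% and 2.87%) and the ETS motif CCGGAAGT (2.88% and 6.21%). The Itga2b stretch, under the strongest of the 34 regions, held none of the 6 motifs. A match is a run of letters and was not tested as a binding site, and a missing match says only that those letters are not in the window.

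**Figure D1:**
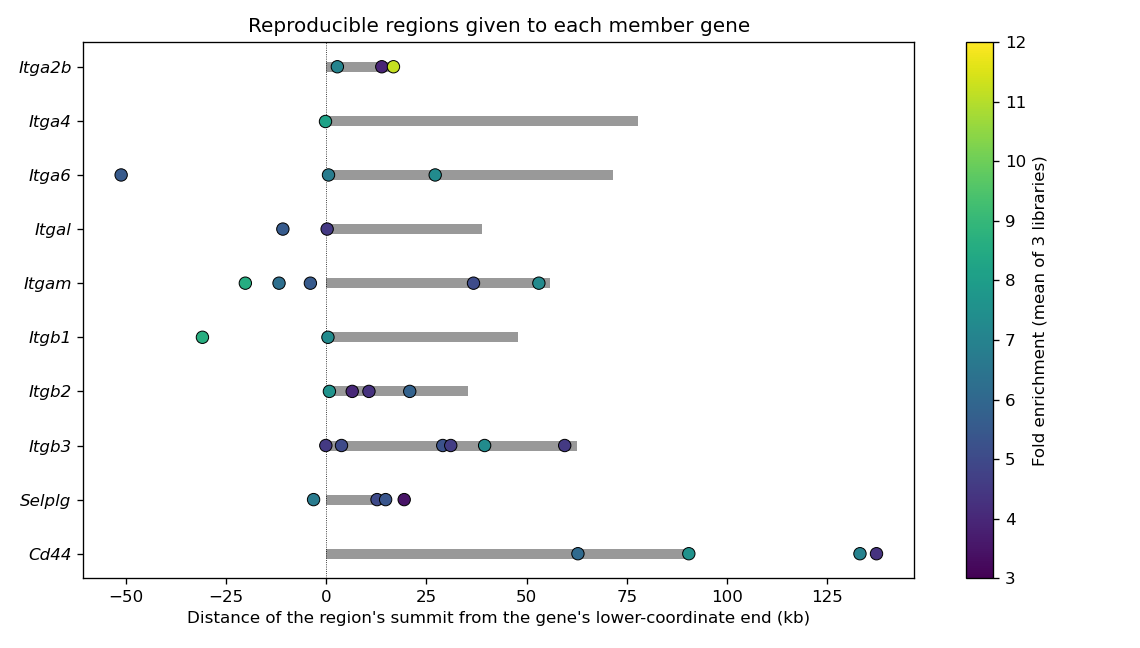
Position of the 34 reproducible regions of the 10 members. Grey bars are the genes from their lower-coordinate to their higher-coordinate end, points are region summits in kb from the lower-coordinate end, and colour is the mean fold enrichment of 3 libraries. A point sits at one end of every gene except Itgam, whose 5 points lie before and inside the gene.

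Itga2b, the alpha chain known as CD41 and a marker of megakaryocytes and of the first blood cells of the embryo, had the strongest of the 34 regions. Stronger ones lay within 100 kb of other members but nearer to a neighbouring gene, and with the nearest-end rule dropped the highest mean was 17.1 for Itgam and 12.9 for Itgal. Fold enrichment is given as the authors' peak caller wrote it, the summit pileup plus 1 over the local background plus 1, and a region takes the value of each library's strongest peak. The region at the Itga2b start (chr11:102469713-102470558) had 11.3, 11.1 and 11.3 in libraries 1, 2 and 3, or 11.2 ± 0.08 (SD, n = 3). The libraries hardly differed, and the coefficient of variation of 0.705% was the lowest among the 34 regions, whose median was 11.8%. The summit pileups were 104, 142 and 174 fragments. The mean lay above 92.8% of all reproducible regions. A further pair of regions lay inside the gene. The one 2810 bp from the lower-coordinate end (chr11:102455623-102456551) had 7.15, 7.54 and 6.51, and the one 2692 bp inside the start (chr11:102466967-102467581) had 4.26, 4.28 and 3.10. Apart from the start region, no region outside the gene was given to Itga2b, and it had no region confined to 1 or 2 libraries.

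Itgb3, whose chain joins that of Itga2b, had the most regions, 6, with 1 at its lower-coordinate end and 5 inside the gene. The end region (chr11:104607791-104608956) was modest, with a fold enrichment of 4.39, 4.97 and 4.23 in the 3 libraries (4.53 ± 0.39, SD, n = 3). The strongest lay inside the gene, 39.5 kb from that end (chr11:104646386-104647780) and had 6.66, 6.99 and 8.32 (7.32 ± 0.88, SD, n = 3). Every library was higher there than at the end region, whose highest library was 4.97. The remaining 4 regions had means from 4.53 to 5.27. By fold enrichment, the strongest Itgb3 region thus lay within the body of the gene, and that of its partner Itga2b over the start. By summit pileup over each library's background these Itgb3 regions were close, with 23.1 ± 2.19 at the end and 23.8 ± 1.26 inside (SD, n = 3). The highest pileup of Itgb3 by this measure, 29.1 ± 8.70 (SD, n = 3), lay 3.84 kb inside that end.

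Itga4 had a single reproducible region in the whole span given to it, the one over its start (chr2:79254667-79256234), 1568 bp wide. Its fold enrichment was 7.20, 8.96 and 8.40 (8.19 ± 0.90, SD, n = 3) and its pileups were 37, 67 and 81 fragments. No region of Itga4 within 100 kb went to another gene, so the gene stood alone with this region. Outside it, 1 region had peaks of libraries 2 and 3, and 2 regions had a peak of 1 library.

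Itgb1, the beta chain shared by Itga4 and Itga6, had 2 regions. The region at its start (chr8:128685137-128686552) had a fold enrichment of 6.99, 7.70 and 7.28 (7.32 ± 0.36, SD, n = 3). The other lay 30.9 kb before the start (chr8:128654461-128655077) and had 5.80, 8.58 and 11.6 (8.65 ± 2.88, SD, n = 3). The libraries differed more there than in any other of the 34 regions, with a coefficient of variation of 33.3% and pileups of 11, 26 and 41 fragments. Over each library's background these pileups came to 10.3, 18.5 and 21.1, so library 1 stayed low after scaling. Without library 3 this region no longer placed Itgb1 next to Itga2b in fold enrichment, and the gene went from place 2 to place 6.

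Itga6 had a region 599 bp inside its lower-coordinate end (chr2:71786739-71787748) with a fold enrichment of 6.04, 6.81 and 7.42 (6.75 ± 0.69, SD, n = 3). A region 27.2 kb inside the gene (chr2:71813704-71814509) had 8.33, 4.99 and 8.62, so that library 2 stood apart from the other two. The last (chr2:71735334-71736091) lay 51.1 kb outside, within the noncoding gene Gm17250, with 6.73, 5.93 and 3.89. Itga6 also had 8 regions with a peak of only 1 or 2 libraries.

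The beta2 family of leukocyte integrins, which bind ICAM proteins and complement, differed in where their regions lay. Itgb2, the shared chain, had a region at its lower-coordinate end (chr10:77530037-77532125) that was the widest of the 34, at 2089 bp. Its fold enrichment was 8.22, 7.29 and 7.31 (7.61 ± 0.53, SD, n = 3), above each of the 3 further regions inside Itgb2, which had means of 4.01, 4.28 and 5.80. All 3 of those were lower in every library than the end region.

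Itgam, the alpha chain known as CD11b and a marker of granulocytes and macrophages that lineage depletion commonly targets, was the only member without a reproducible region within 1 kb of either end. No single library had a peak there either. It nevertheless had 5 regions, 3 before its start and 2 inside it. The strongest (chr7:128042093-128042923) lay 20.1 kb before the start, over the pseudogene Gm9299, and had a fold enrichment of 8.11, 8.79 and 8.82 (8.57 ± 0.40, SD, n = 3). The other 2 before the start lay 11.7 and 3.92 kb away and had means of 6.25 and 5.53. Inside, the region 2774 bp from the far end (chr7:128115172-128115825) had 6.31, 8.75 and 6.72. The narrowest of the 34 regions, 306 bp, lay 19.1 kb from the far end (chr7:128099224-128099529) with 4.84, 4.57 and 5.77. A peak of library 3 alone lay 1716 bp inside the start, with a fold enrichment of 4.21. With a window of 3 kb in place of 1 kb, Itgam also counted as occupied, through the region 2774 bp from its far end and not at its start. The share of genes then rose to 50.8%.

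Itgal, the alpha chain known as CD11a, was the weakest member by the fold enrichment of its strongest region. The region at its lower-coordinate end (chr7:127295896-127296590) had a fold enrichment of 4.34, 4.98 and 4.21 (4.51 ± 0.42, SD, n = 3) on pileups of 13, 19 and 20 fragments. Its other region lay 10.8 kb outside (chr7:127285034-127285744), at an end of the pseudogene Gm17511, and had 7.002, 4.91 and 4.70. The libraries overlapped too much to order these 2 regions.

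**Figure D2:**
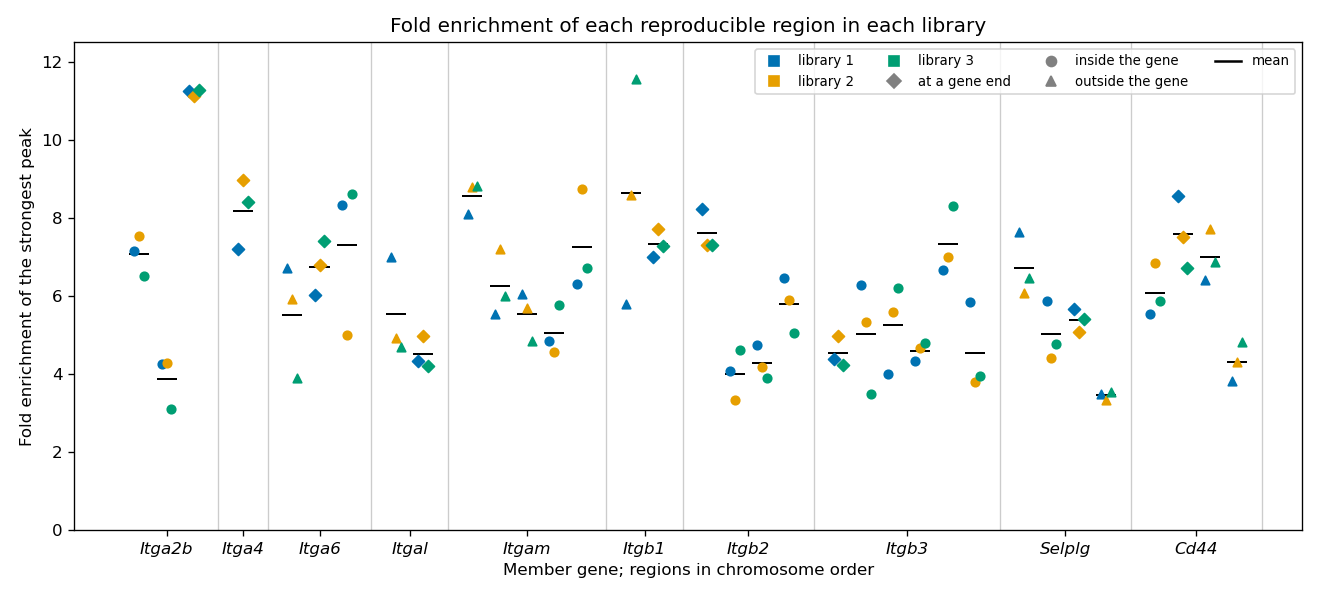
Fold enrichment of the strongest peak of each library in each of the 34 regions, grouped by gene in chromosome order. Within a region libraries 1, 2 and 3 run from left to right, diamonds are regions at a gene end, circles inside and triangles outside the gene, and the bar is the mean. The 3 points of the Itga2b end region fall together at 11.1 to 11.3, while those of the outer Itgb1 region run from 5.80 to 11.6.

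Selplg and Cd44, the members that are not integrins, had regions on both sides of an occupied end, as did Itga6. Selplg, the shortest member, had 4 regions, all found in every library, with none confined to 1 or 2 libraries. The region at its higher-coordinate end (chr5:113832384-113832983) had a fold enrichment of 5.66, 5.08 and 5.41 (5.38 ± 0.29, SD, n = 3) but pileups of 58, 82 and 118 fragments. The one 2023 bp inside that end (chr5:113830218-113830975) had 57, 65 and 97 fragments at a fold enrichment of 5.03 ± 0.76, and the one 4751 bp beyond it (chr5:113836970-113837497) 32, 47 and 65 at 3.46 ± 0.10 (SD, n = 3). The highest fold enrichment of the gene, 6.72 ± 0.81, belonged to the region beyond the opposite end (chr5:113814120-113815534), inside the noncoding gene Gm42004, whose pileups of 31, 38 and 53 fragments were lower than at the occupied end in every library.

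Cd44 had a region over its start (chr2:102900942-102901913) with a fold enrichment of 8.55, 7.52 and 6.71 (7.60 ± 0.92, SD, n = 3). A region 27.7 kb inside the gene (chr2:102873692-102874293) had 5.55, 6.84 and 5.86. Another pair lay 42.7 and 46.8 kb upstream of the gene, within the noncoding gene Gm34483. The nearer (chr2:102943930-102944395) had 6.42, 7.72 and 6.87, and the farther (chr2:102948296-102949158) 3.81, 4.31 and 4.82, so the nearer was higher in every library. A region near the far end of the gene had peaks of libraries 2 and 3, at 7.89 and 7.47, and none of library 1.

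Fold enrichment and pileup ordered the members differently. By the fold enrichment of the strongest region the order was Itga2b (11.2), Itgb1 (8.65), Itgam (8.57), Itga4 (8.19), Itgb2 (7.61), Cd44 (7.60), Itgb3 and Itga6 (both 7.32), Selplg (6.72) and Itgal (5.54). For no neighbours in this order was the lowest library of one above the highest library of the next. Compared library by library, only Selplg (7.63, 6.07 and 6.46) was above its next neighbour, Itgal (7.002, 4.91 and 4.70), in all 3 libraries. The lowest Itga2b library, at 11.1, was above every library of every other member except Itgb1 in library 3. By the highest summit pileup of each gene over the library background, Itga2b came first with 95.9 ± 5.90, followed by Selplg with 57.8 ± 3.19, Itga4 with 41.3 ± 6.49 and Itgb2 with 31.8 ± 1.75 (SD, n = 3). For each of the first 3, the lowest library was above the highest library of the next, which held for no neighbours further down. Compared library by library, Itgb3 (36.5, 31.3 and 19.5) was also above its next neighbour, Cd44 (21.5, 26.3 and 18.5). Itgam fell to place 9 with 17.2 ± 3.64 and Itgb1 to place 10 with 17.1 ± 1.29. The members were measured in the same 3 libraries, where an exact two-sided sign-flip test over libraries cannot go below p = 0.25, so no test was run on these orders.

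The local background parted the genes further. It is given here over the library background, which was 1.07, 1.41 and 1.95 fragments per base. The local background so scaled had a median of 2.62 over the 34 regions and 2.16 over all reproducible regions. At the Selplg end region it was 10.2 ± 1.17 and in the next 2 regions 9.41 ± 0.97 and 8.82 ± 0.83 (SD, n = 3). At the Itga2b start it was 7.89 ± 0.49 and in the region 2692 bp inside 7.78 ± 0.42 (SD, n = 3). At both genes these regions lie within a few kb of each other, as do a pair at and just inside the lower-coordinate end of Itgb3, with local backgrounds of 4.53 and 5.18, and a pair deeper inside it, with 3.33 and 3.16. The lowest value was 1 in all 3 libraries, at the narrowest region of Itgam, where the background was that of the library. A high local background lowers fold enrichment at a given pileup.

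**Figure D3:**
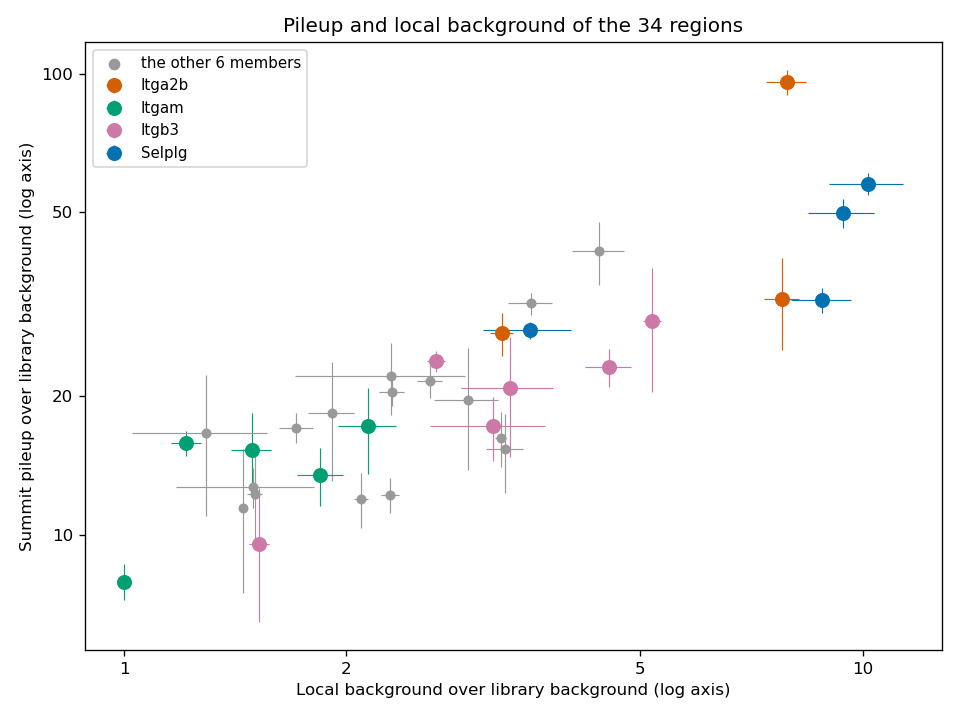
Summit pileup over the library background against local background over the library background for the 34 regions, both on log axes. Points are means of 3 libraries and bars are SDs, with 4 members in colour. Of the 7 regions of Selplg and Itga2b, 5 lie at local backgrounds of 7.78 to 10.2, and those of Itgam lie at 1 to 2.14.

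The 34 regions as a group were close in strength to the rest. Their median fold enrichment was 5.67, where all reproducible regions had 6.25. The median log2 value of the 34 was 2.49, against 2.63 for all reproducible regions given to a gene. The 9 regions at gene ends had a median of 7.32 (7.09 for all such regions), the 15 inside the members 5.06 (5.72) and the 10 outside 5.89 (5.87). By place, 26.5% lay at a gene end, 44.1% inside and 29.4% outside, where all given regions had 41.5%, 31.9% and 26.6%. Their median width of 758 bp was close to the 756 bp of all regions. All 9 members with an occupied end had it at a single end.

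Many further peaks near the members were not shared by all libraries. Beside the 34 reproducible regions, 13 had peaks of 2 libraries and 22 of 1 library, so 49.3% of the 69 were reproducible, where the share among all given regions was 39.0%. The median fold enrichment was 4.27 for regions of 2 libraries and 4.09 for those of 1 library. Of the 22, 3 came from library 1, 6 from library 2 and 13 from library 3, the library with the most peaks and the highest background. Itgb3 had 9 such regions and Itga6 8, while Itga2b and Selplg had 0.

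**Figure D4:**
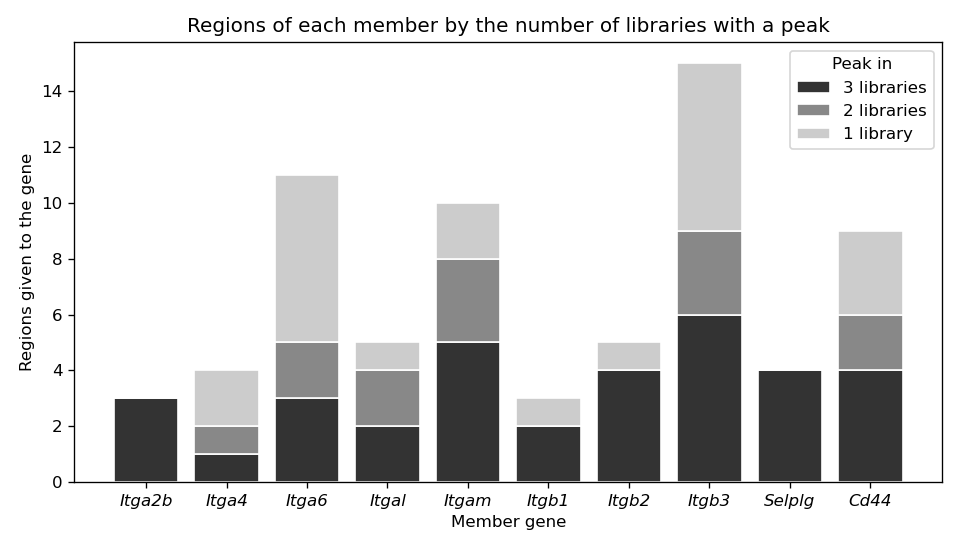
Number of regions given to each member, by the number of libraries with a peak in the region (dark for 3, mid grey for 2, light for 1). Itgb3 had 15 regions in all, 6 of them in every library, while all regions of Itga2b and Selplg were found in every library.

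The occupied ends among other genes of adhesion and homing lay mainly outside the integrin family. An end was occupied in 21 of 50 genes (42.0%, beside 45.2% of all genes), and 32 of 50 (64.0%) had at least 1 region. Of the 18 other integrin genes, 4 had an occupied end. Itga5 and Itgb7 had an end peak in every library but no reproducible region at an end. Itgb5, a vitronectin receptor chain, had a fold enrichment of 5.31 ± 0.79 at its end, Itga9 5.20 ± 0.58 and Itga3 4.62 ± 1.33 (SD, n = 3). Of the genes that switch integrins on or tie them to actin, 8 of 12 were occupied. Vcl, which encodes vinculin, had 14.9 ± 1.98, the small GTPase gene Rap1b 14.4 ± 0.54 and Ilk, the integrin-linked kinase gene, 13.3 ± 1.49 (SD, n = 3). Each of these was above the Itga2b start in every library. Enzymes that build the selectin-binding sugars and sulphates of PSGL-1 were occupied in 5 of 7 cases, with B4galt1 at 8.04 ± 0.24, Tpst2 at 7.75 ± 1.32 and St3gal4 at 7.43 ± 1.79 (SD, n = 3). Selp was the occupied one of 3 selectin genes (4.90 ± 0.53), and Fn1 (5.83 ± 0.89) and Icam1 (4.59 ± 0.39) the occupied ones of 5 counter-receptor genes (SD, n = 3). The hyaluronan synthases had 0 of 3. Cxcr4, the receptor that guides stem cells to the marrow, had 7.75 ± 0.57 (SD, n = 3), and the gene of its ligand, Cxcl12, had no end region.

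Peaks at marker genes, which are not a measure of expression, were set beside the LSK label. The share of all protein-coding genes with an occupied end was 45.2%, and that with at least 1 region 53.7%. Of 6 listed genes used to sort or subdivide LSK cells, Kit, Cd34 and Flt3 had an occupied end, and Ly6a, Slamf1 and Cd48 did not. Only Kit and Ly6a, which encodes Sca-1, belong to the gate itself, and Ly6a had 0 regions. Lymphoid markers had 0 of 6 ends occupied and granulocyte and macrophage markers 0 of 6. Erythroid markers had 1 of 4 (Klf1), megakaryocyte markers 3 of 4 (Pf4, Gp9 and Itga2b itself) and endothelial and stromal markers 1 of 6 (Kdr). Counted by any region given to the gene, the LSK list had 4 of 6, lymphoid markers 1 of 6 and granulocyte and macrophage markers 2 of 6. Erythroid markers had 2 of 4, megakaryocyte markers 3 of 4 and endothelial and stromal markers 6 of 6. The macrophage marker genes Adgre1 and Csf1r had regions away from their ends with a mean fold enrichment of 13.0 and 12.8, above the 11.2 of Itga2b. Whether megakaryocyte-primed cells in the sort had a part in the Itga2b value was not tested.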

How the data were processed

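The submitters' processing notes name mm10 as the build and Bowtie2, SAMtools and MACS2 as the tools. Each deposited file lists the peaks of 1 library. Fold enrichment is a ratio made by the authors' peak caller. The deposited −log10 p and −log10 q are also per peak, and their lowest q value was that of a 0.05 threshold. The deposited score was not used. Summit pileup and local background were solved from fold enrichment and −log10 p (a Poisson tail, pseudocount 1), and 100% of pileups came out whole within 0.05. The lowest background of a library was taken as its library background. The lists hold no read totals. Depth was read from the peak lists alone. Gene ends came from RefSeq (GRCm38.p6), with no exons. Peaks on chromosome M were left out. The members and lists were chosen with earlier results of these data known. All members were named, and of other adhesion genes the 3 strongest occupied ends of each group. Joining and assignment were tested on simulated data. Python 3.11.15, pandas 2.3.3 and scipy 1.17.1 were used.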

Additional observations from a re-analysis of the deposited data

How the results depend on the processing

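Restricted to the 10000 strongest peaks per library, the members had 6 regions, 6 members had a region, 5 of 10 had an occupied end (20.0% of all genes) and the median log2 fold enrichment was 2.98. It was 2.35 with regions of at least 2 libraries, 2.75 with −log10 q of at least 5, 2.43 when ends of noncoding genes also competed and 2.60 with every region within 100 kb counted, which gave 91 regions. With 50% reciprocal overlap, counted from the peaks of library 1, 6 of 10 ends were occupied (34.9% of genes). Leaving out 1 library gave medians of 2.38 to 2.55, and 3 to 7 members kept their place in the order by fold enrichment. By summit pileup 2 members kept it, and by −log10 q 3. Itga2b was first in each of these 5 orders, but with every region within 100 kb counted its 11.2 fell behind Itgam (17.1) and Itgal (12.9). Of the values that answer a comparison, 15 moved and 37 stayed within 1.5 times the count or 1 SD of the median. The 37 included the 6 of 10 ends with reciprocal overlap and the 7 members that kept their place without library 1. No paired analysis was possible because the series has a single group. Peak lists limit depth: a gene without a peak may hold signal below the caller's threshold.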

Other observations

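Most reproducible regions around the members belonged to neighbours. Of 91 regions inside or within 100 kb of a member, 57 had another protein-coding gene end nearer. Around Selplg 16 of 20 went elsewhere, 8 of them to Coro1c, which encodes an actin-binding coronin. Around Itgal 15 of 17 did, 3 of them to Mylpf. Around Itgam, 5 of 10 went elsewhere, 2 of them to Itgad, the neighbouring alpha integrin gene, whose strongest region had a fold enrichment of 10.2. Of the other members, Itga4 and Itgb1 lost 0 regions to neighbours, Itga6 1, Itga2b and Itgb3 4 each, Cd44 5 and Itgb2 7.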
